A study of Mus musculus with 5 samples.

Results

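Heat shock and chaperone genes encode proteins that help other proteins fold, keep them from clumping and hand damaged ones on for degradation. The genes described here are those whose symbol starts with Hspa, Hspb, Hspd, Hspe, Hsph, Hsp90, Dnaja, Dnajb or Dnajc, together with Canx and Calr. Of 77 such genes among 32285 gene features, 71 had at least 50 unique molecular identifiers (UMIs, each a counted RNA molecule) summed over the 5 libraries. The 6 left out were Dnajc22, Hspb9, Dnajc5g, Hspb7, Hspb2 and Dnajb13. By role the 71 comprised 8 cytosolic Hsp70 genes, 3 of the Hsp110 type, 2 cytosolic Hsp90 genes, 13 J-domain genes of the DnaJA and DnaJB type, 10 chaperones of the endoplasmic reticulum (ER), 9 mitochondrial ones, 4 small heat shock genes, 4 J-domain genes of vesicles and 18 others.

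The data are single-nucleus libraries of mouse hippocampus in which RNA and accessible chromatin were read from the same nuclei. The first library is labelled wild type (WT). The second is labelled 5xFAD, a mouse line whose transgenes carry familial Alzheimer mutations and are driven by the neuronal Thy1 promoter. The remaining 3 are 5xFAD mice labelled as lacking monoacylglycerol lipase (MAGL), the enzyme that breaks down the endocannabinoid 2-arachidonoylglycerol: an astrocyte specific, a neuron specific and a global MAGL-KO. All 5 carry the same batch name, and the labels state neither the age or sex of the mice, nor the number of animals per library, nor the Cre driver behind the cell-specific deletions. Each genotype is 1 library, so no test between genotypes was made. Values of 5 libraries are given in the order WT, 5xFAD, astrocyte, neuron and global MAGL-KO.

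Hsp70 proteins bind exposed stretches of unfolded proteins, J-domain proteins bring them their clients, Hsp110 proteins exchange their nucleotide, and Hsp90 proteins act late on partly folded clients such as kinases and receptors. In the cytosol, heat or misfolded protein releases the transcription factor HSF1, which raises Hspa1a, Hspa1b, Hsph1, Dnajb1 and others. In the ER, the unfolded protein response raises Hspa5 (BiP), Hsp90b1 (GRP94), Calr and their helpers. Neurons are known for a high threshold of the HSF1 response and a constant high level of Hspa8.

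Total UMIs per library ranged from 101931020 to 159532813, and 3917 to 7031 nuclei per library were used. Classes were named from clusters made without any of the 71 genes: 17792 excitatory neuron-like, 2467 inhibitory neuron-like, 1393 oligodendrocyte-like, 479 oligodendrocyte precursor (OPC)-like, 397 microglia-like and 223 astrocyte-like nuclei. The class names below are short for these. Each class held the highest level of 10 to 12 of its own 12 markers, but summed excitatory markers stood at 286 to 504 CPM (UMIs per 1000000 UMIs of the class) in microglia and 790 to 1121 CPM in astrocytes, beside 3368 to 3504 in excitatory nuclei. Any 2 libraries shared 29 to 63 cell barcodes. Mgll, which encodes MAGL, stood over all nuclei at 74.3, 77.7, 92.4, 92.6 and 80.4 CPM, in excitatory neurons at 74.2 in WT, 74.8 in 5xFAD and 84.2 to 98.1 in the others, in inhibitory neurons at 87.5, 92.8, 105, 90.1 and 89.95, in astrocytes at 493, 346, 483, 403 and 430, and in microglia at 326, 111, 142, 154 and 100 CPM. In excitatory neurons and astrocytes no library labelled MAGL-KO was below 5xFAD, while in astrocytes all 3 were below WT. The labels do not say which part was deleted, and UMIs from outside that part check nothing, so the genotypes are written as labelled throughout. Xist and transcripts of Y-linked genes were each found in every library, in different nuclei, so each library pools both sexes. Nuclei with Xist made up 57.38%, 42.08%, 57.57%, 80.41% and 56.46% of the excitatory nuclei that had only 1 of the 2 kinds. Both kinds together were found in 5.8% to 8.95% of excitatory and 13.02% to 18.64% of inhibitory nuclei. An excitatory cluster led by Plpp4, Pappa and Penk, named dentate granule, held 26, 21, 296, 282 and 571 nuclei. Microglia of the WT library came from 1 of the 2 microglial clusters. Another excitatory cluster, of 125, 114, 144, 91 and 150 nuclei, was led among excitatory nuclei by Nxph1, an inhibitory marker, and 25.16% of its nuclei held both sex-linked kinds. It had 180 CPM of Slc17a7 and 5.55 of Gad1, beside 62.2 and 194 CPM in inhibitory neurons. Without it every class called the same number of members.

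The first comparison asks in which cell classes each chaperone is high. UMIs were summed per class and library, and each class was compared with the mean of the other 5 by edgeR over the 5 libraries, whose genotypes serve as replicates. A gene was called at a Benjamini-Hochberg adjusted p under 0.05 over all genes tested and a fold of at least 2. Of the 71 genes, 52 had enough UMIs to be tested, among 10817 genes in all. The 19 that did not include Hspa1a, Hspa1b, Dnajb1, Dnaja4, Hspa2 and the small heat shock genes.

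Most chaperones differed little between classes, and a few J-domain and Hsp70-like genes differed a lot. Excitatory neurons had 4 of 52 higher and 1 lower, where 20.3% and 5.09% of the tested genes that were not used for clustering were called higher and lower. Inhibitory neurons had 4 higher and 0 lower, against 18.9% and 4.34% of genes. DESeq2 also gave 0 lower there, while 16 were lower at an unadjusted edgeR p under 0.05. For astrocytes the counts were 1 higher and 3 lower, against 12.8% and 8.47%. Microglia had 4 higher and 10 lower, against 10.6% and 24.0%. Oligodendrocytes had 5 higher and 1 lower, against 10.5% and 15.0%. OPCs had 0 higher and 3 lower, against 13.8% and 4.15%, with 0 higher in DESeq2 and 4 higher at an unadjusted edgeR p under 0.05. The members' share was below that of all genes in both directions in each class, except for the lower calls in OPCs (5.77%). When each nucleus was assigned to its highest marker score in place of its cluster, the calls numbered 1, 0, 0, 0, 1 and 0 in these 6 classes, so nearly all calls rest on the named clusters. The replicates differ in genotype, so their spread includes any effect of genotype. The members' median log2 difference was 0.02 in excitatory neurons, 0.15 in inhibitory neurons, -0.13 in astrocytes, -0.16 in microglia, 0.17 in oligodendrocytes and -0.18 in OPCs. The medians of the tested genes not used for clustering, in the same order, were 0.11, 0.10, -0.04, -0.19, 0.01 and 0.03.

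**Figure D1:**
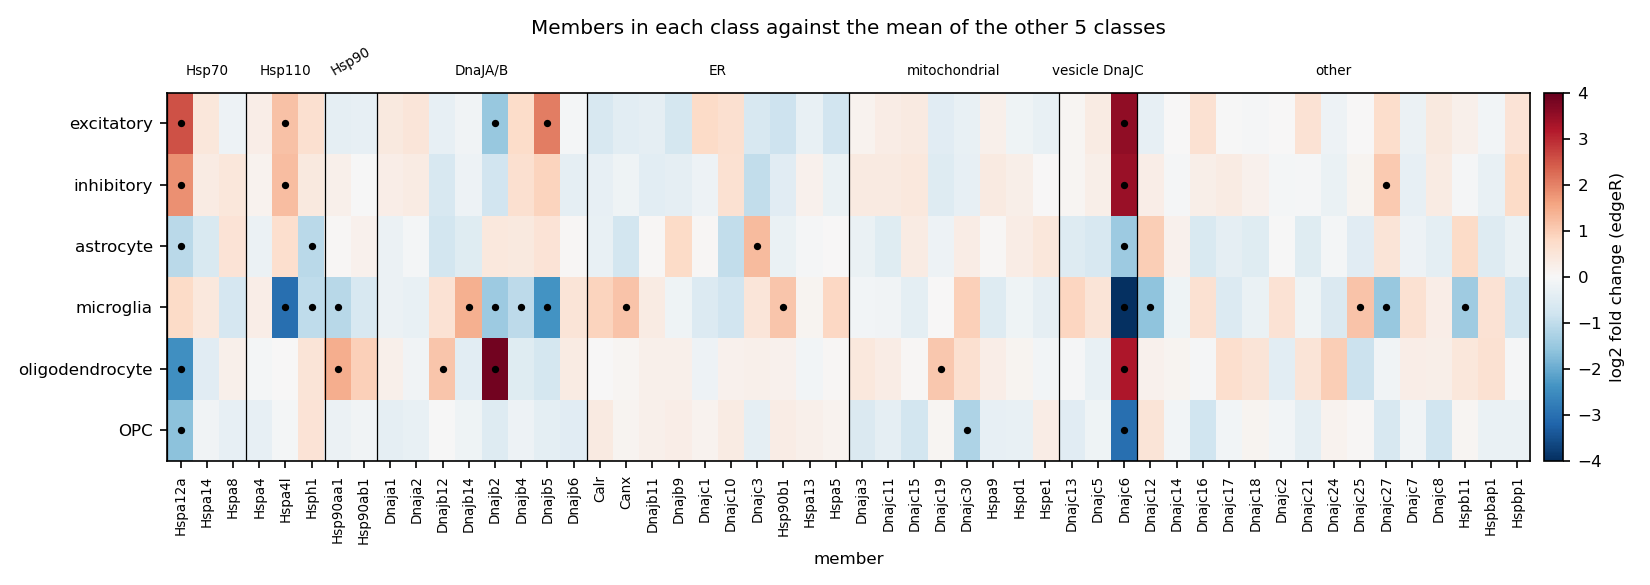
Heat map of the log2 fold change of each tested chaperone gene (columns) in each of 6 cell classes (rows) against the mean of the other 5, fitted by edgeR over 5 libraries, with black dots on the genes called and colours that end at 4. Dnajc6, Dnajb2, Hspa12a and Hspa4l carry the strongest colours, and Canx and Hsp90b1 are called in microglia.

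The widest range belonged to Dnajc6, which encodes auxilin, the J-domain protein that strips clathrin from endocytic vesicles. It stood at 275, 298, 283, 277 and 299 CPM in excitatory neurons, at 282 to 297 CPM in inhibitory neurons and at 324, 298, 290, 302 and 216 CPM in oligodendrocytes. Microglia held 2 Dnajc6 UMIs in the 5 libraries together, astrocytes 16.5 to 25.0 CPM and OPCs 1.51 to 13.9 CPM. No library of microglia, astrocytes or OPCs reached a level seen in the other 3 classes. Dnajc6 was higher by a log2 difference of 3.56 ± 0.11 (SE) in excitatory neurons, 3.45 ± 0.11 in inhibitory neurons and 3.23 ± 0.13 in oligodendrocytes (edgeR, Benjamini-Hochberg adjusted p = 8.41e-30, 1.02e-28 and 1.33e-24). It was lower in microglia (-5.76 ± 0.52, adjusted p = 4.04e-13), OPCs (-3.03 ± 0.58, adjusted p = 2.85e-05) and astrocytes (-1.45 ± 0.47, adjusted p = 0.0109) in the same edgeR fits. The microglial value rests on few UMIs and depends on the prior count, and it was -0.56, below the threshold, when likely doublets were kept. The astrocyte call was lost without the library labelled astrocyte MAGL-KO (-1.38) or global MAGL-KO (-1.29).

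Dnajb2, a J-domain protein that passes ubiquitinated clients to the proteasome, was an oligodendrocyte gene in these nuclei. Its oligodendrocyte levels were 229, 206, 191, 220 and 167 CPM, and its excitatory levels 6.85, 7.92, 8.08, 7.54 and 7.02 CPM. The ranges were far apart, and no other class exceeded 45.9 CPM. Dnajb2 was 3.84 ± 0.10 higher in oligodendrocytes (edgeR, Benjamini-Hochberg adjusted p = 1.86e-31) and lower in excitatory neurons (-1.53 ± 0.16, adjusted p = 4.57e-11) and microglia (-1.46 ± 0.37, adjusted p = 0.000708). The other genes higher in oligodendrocytes were Hsp90aa1, the stress-inducible cytosolic Hsp90 (1.45 ± 0.08), Dnajb12, a J-domain protein of the ER membrane (1.12 ± 0.15), and Dnajc19 of the mitochondrial import motor (1.09 ± 0.10), with adjusted p of 1.26e-19, 9.38e-09 and 3.67e-13 in edgeR. Hsp90aa1 levels there were 157, 210, 194, 124 and 174 CPM, above every library of the other 5 classes, the nearest of which was 117 CPM in astrocytes of the library labelled astrocyte MAGL-KO. Dnajb12 stood at 48.7, 54.2, 50.4, 64.5 and 34.8 CPM in oligodendrocytes, and microglia labelled neuron MAGL-KO reached 109 CPM on 17 UMIs. Hsp90ab1, the constitutive partner of Hsp90aa1, stood at 169, 229, 200, 145 and 176 CPM in oligodendrocytes and at 58.8 to 98.3 CPM in excitatory neurons. It was not called in any class.

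Hspa12a and Hspa4l were called higher in both neuronal classes, but neither was high in neurons alone. Hspa12a also had a positive difference in microglia (0.77 ± 0.26) and Hspa4l in astrocytes (0.69 ± 0.22), both under the fold required. Hspa12a, a distant Hsp70 relative, stood at 83.9, 83.1, 87.5, 90.6 and 95.3 CPM in excitatory neurons, at 59.9 to 68.4 CPM in inhibitory neurons and at 9.51, 6.14, 6.82, 3.45 and 3.67 CPM in oligodendrocytes. Its log2 difference was 2.53 ± 0.10 in excitatory and 1.84 ± 0.11 in inhibitory neurons, and -2.44 ± 0.28 in oligodendrocytes, -1.64 ± 0.28 in OPCs and -1.07 ± 0.36 in astrocytes (edgeR, Benjamini-Hochberg adjusted p = 8.19e-26, 4.13e-19, 3.12e-10, 4.84e-06 and 0.016). Without the WT library the astrocyte difference of Hspa12a was -0.81 and not called. Hspa4l, an Hsp110-type exchange factor, stood at 78.3, 103, 84.3, 76.4 and 88.6 CPM in excitatory neurons and at 0, 4.61, 7.88, 38.5 and 15.0 CPM in microglia. It was higher in excitatory (1.17 ± 0.10) and inhibitory (1.23 ± 0.10) neurons and lower in microglia (-3.01 ± 0.34), with edgeR adjusted p of 2.34e-14, 9.16e-15 and 2.08e-10. With likely doublets kept, the excitatory difference of Hspa4l was 0.99, just under the fold required. Dnajb5, a J-domain protein of the DnaJB type, stood at 16.5, 16.8, 17.1, 18.6 and 16.0 CPM in excitatory neurons, above every inhibitory, OPC and oligodendrocyte library. Astrocytes ranged from 0 to 24.8 CPM on 0 to 5 UMIs per library, which overlaps. Dnajb5 was 2.04 ± 0.18 higher in excitatory neurons (edgeR adjusted p = 1.59e-13). Dnajc27, a J-domain protein with a Rab-like GTPase, stood at 23.7, 22.4, 27.2, 26.6 and 22.8 CPM in inhibitory neurons and was 1.06 ± 0.12 higher there (edgeR adjusted p = 1.73e-10), or 0.85 and not called with doublets kept.

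**Figure D2:**
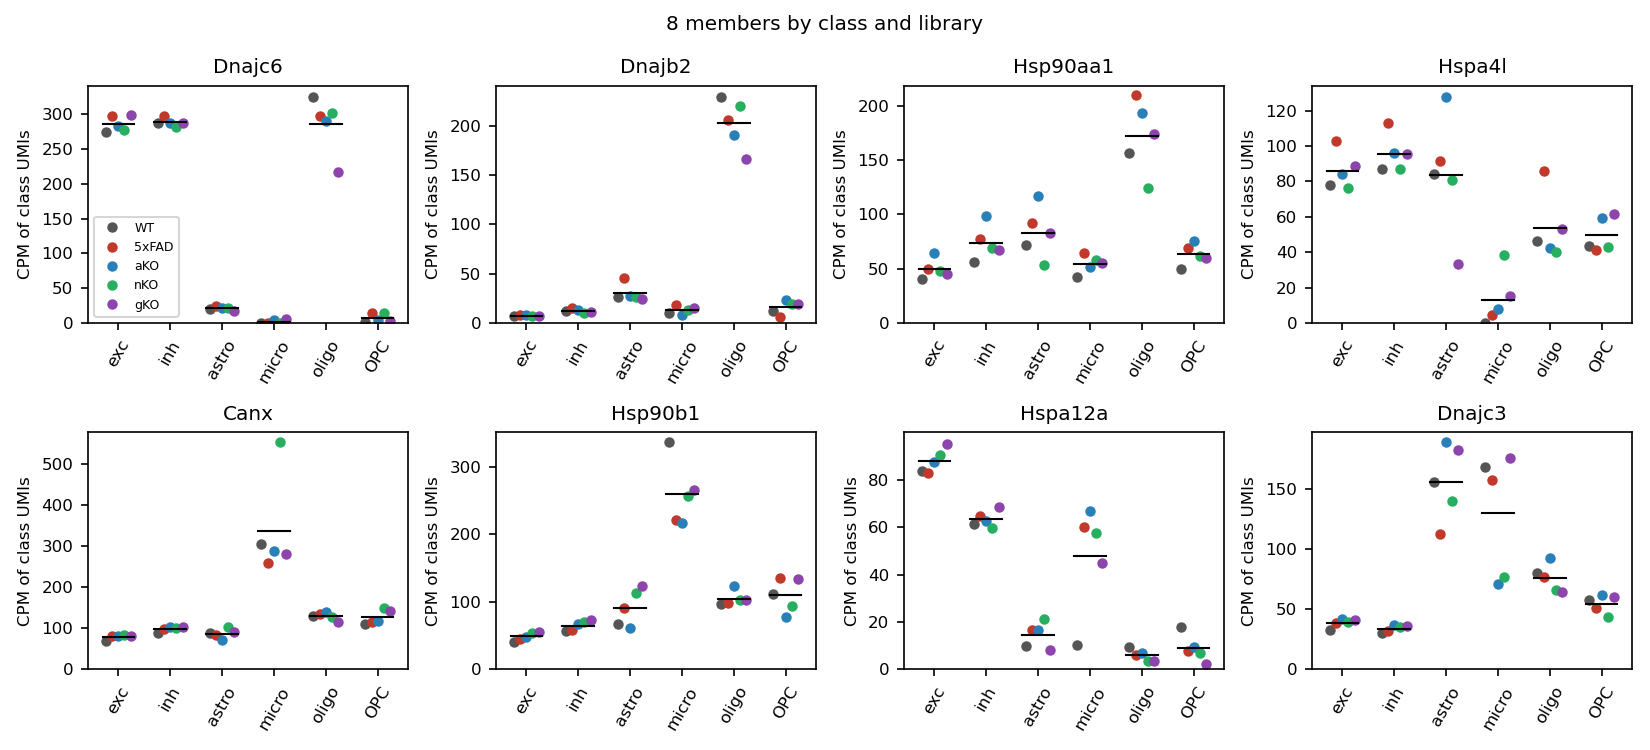
Levels of 8 chaperone genes (CPM of class UMIs, linear axes from 0) in 6 cell classes, with 1 point per library (aKO, nKO and gKO are the astrocyte, neuron and global MAGL-KO) and bars at the means. Dnajc6 is high in both neuronal classes and in oligodendrocytes, Dnajb2 stands out in oligodendrocytes and Canx in microglia.

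In microglia the ER chaperones Canx and Hsp90b1 were higher, and 4 of the 9 tested members counted among HSF1 targets were lower. Of the 10 ER chaperones these 2 were higher and 0 lower in edgeR and in DESeq2, against 10.6% and 24.0% of genes by edgeR, where an unadjusted edgeR p under 0.05 gave 5 higher and 2 lower. Their median log2 difference was 0.41, against -0.19 over the genes not used for clustering. The same 10 had medians of -0.53 in excitatory and -0.30 in inhibitory neurons, where 0 passed both limits in either direction by edgeR and by DESeq2. The shares of all genes higher and lower were 20.3% and 5.09% in excitatory and 18.9% and 4.34% in inhibitory neurons. At an unadjusted edgeR p under 0.05, 2 were higher in excitatory and 1 in inhibitory neurons, and 8 were lower in each class. Canx (calnexin, the membrane lectin that holds glycoproteins during folding) stood at 305, 258, 287, 551 and 281 CPM in microglia, from 29 to 86 UMIs per library, and at 69.3 to 83.4 CPM in excitatory neurons. Hsp90b1, the ER member of the Hsp90 family, stood at 336, 221, 217, 256 and 266 CPM in microglia and at 41.2 to 55.8 CPM in excitatory neurons. The microglial and excitatory CPM ranges of both genes were far apart. Canx was 1.14 ± 0.12 and Hsp90b1 1.10 ± 0.13 higher in microglia (edgeR, Benjamini-Hochberg adjusted p = 1.6e-11 and 3.75e-10). Both sat near the 2-fold limit: Canx was 0.94 without the library labelled neuron MAGL-KO, and Hsp90b1 was 0.999 without the WT library and 0.99 without the filter on low counts. With likely doublets kept, Canx was 0.93 and Hsp90b1 0.91, so neither was called. The ER chaperones Dnajc10 and Dnajc1 had negative values in microglia, -0.77 ± 0.20 and -0.56 ± 0.10. Hspa5, the ER Hsp70, stood at 263, 171, 138, 167 and 236 CPM in microglia and at 37.3 to 50.4 CPM in excitatory neurons. Calr (calreticulin, the soluble counterpart of calnexin) stood at 242, 175, 150, 212 and 155 CPM in microglia and at 38.7 to 53.4 CPM in excitatory neurons. In CPM every microglial library lay above every excitatory one for Hspa5 and Calr, but the edgeR difference from the mean of all other classes did not reach 2-fold.

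Dnajb14, an ER-membrane J-domain protein, stood at 126, 235, 189, 244 and 190 CPM in microglia and was 1.43 ± 0.14 higher (edgeR adjusted p = 4.8e-12). Dnajc25 was 1.14 ± 0.26 higher from 2 to 15 UMIs per library (adjusted p = 0.000182), but 0.99 and not called without the library labelled global MAGL-KO, and 0.84 with doublets kept. The 10 genes lower in microglia included Hsp90aa1 (-1.11 ± 0.18), Hsph1 (-1.02 ± 0.33), Dnajb4 (-1.05 ± 0.24) and Hspa4l, which are counted among HSF1 targets, with edgeR adjusted p of 6.43e-07, 0.00719 and 0.000184 for the first 3. The doublets setting ended the calls of Hsph1 (-0.57) and Dnajb4 (-0.58). Calls were also lost for Hsp90aa1 without the library labelled astrocyte MAGL-KO (-0.97), for Dnajb4 without the WT (-0.99), 5xFAD (-0.92) or global MAGL-KO library (-0.95), and for Hsph1 without the WT (-0.99), neuron MAGL-KO (-0.90) or global MAGL-KO library (-0.81). Of 9 tested HSF1-target members 4 were lower and 0 higher in microglia by edgeR and by DESeq2, against 24.0% of genes lower, with a median of -0.68, and 0 were higher at an unadjusted edgeR p under 0.05. Dnajb5 (-2.38 ± 0.83, adjusted p = 0.0131) and Dnajc12 (-1.61 ± 0.63, adjusted p = 0.0274) rested on 2 and 4 UMIs in microglia. They lost the edgeR call without the library labelled global MAGL-KO (-2.02 and -1.29), and Dnajb5 also without 5xFAD (-1.94) or with doublets kept (-0.37), and Dnajc12 without that labelled astrocyte MAGL-KO (-1.51). The remaining lower genes were Dnajc6, Dnajc27 (-1.50 ± 0.41), Dnajb2 and Hspb11 (-1.43 ± 0.41). With likely doublets kept, the microglial calls numbered 7 in place of 14.

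Among other genes of the unfolded protein response, from a list of 23, 18 were tested, and 3 were higher and 0 lower in microglia by edgeR and by DESeq2, or 11 higher and 0 lower at an unadjusted edgeR p under 0.05. The 3 are 16.7% of those tested, beside 10.6% of genes. These were Sdf2l1, an Hspa5-associated ER protein (2.99 ± 0.38), Edem1, which directs misfolded glycoproteins to degradation (2.77 ± 0.21), and the disulfide isomerase Pdia3 (1.36 ± 0.12), with edgeR adjusted p of 4.49e-09, 3.32e-15 and 3.83e-13. The same list had 3 lower and 0 higher in excitatory neurons by both tools, against 5.09% and 20.3% of genes, with 11 lower and 1 higher at an unadjusted edgeR p under 0.05. The 3 were Herpud1 (-1.27 ± 0.11), Edem1 (-1.17 ± 0.17) and Sdf2l1 (-1.10 ± 0.31). Of 21 tested Hsp70 and Hsp90 partners and heat shock factors, 2 were higher and 4 lower in microglia, against 10.6% and 24.0% of genes. Fkbp5, an Hsp90 partner of steroid receptors, was 2.13 ± 0.27 higher (edgeR adjusted p = 4.05e-09). Among the 8 subunits of the TRiC chaperonin, Cct3 was lower in microglia (-1.03 ± 0.28, edgeR adjusted p = 0.00183).

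In astrocytes only Dnajc3 was higher. It encodes p58IPK, an ER helper of Hspa5 that also restrains the kinase PERK. Dnajc3 stood at 156, 113, 189, 140 and 182 CPM in astrocytes and at 32.9 to 41.7 CPM in excitatory neurons, without overlap, a log2 difference of 1.26 ± 0.15 (edgeR, Benjamini-Hochberg adjusted p = 3.12e-09). Microglia overlapped astrocytes for Dnajc3, at 70.9 to 175 CPM. Hsph1 was lower in astrocytes (-1.08 ± 0.35, adjusted p = 0.0109) on 2 to 6 UMIs per library, and not called without 5xFAD (-0.94) or the library labelled astrocyte MAGL-KO (-0.97). Bag3, the cochaperone of small heat shock proteins and of autophagy, was 2.62 ± 0.37 higher in astrocytes and -2.97 ± 0.22 in excitatory neurons. In OPCs Dnajc30, a mitochondrial J-domain protein, was lower (-1.25 ± 0.46, adjusted p = 0.0263) on 0 to 4 UMIs per library, and the call was lost without WT (-1.10) or the library labelled global MAGL-KO (-1.01).

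Hspa1a and Hspa1b, the strictly inducible Hsp70 genes, had few UMIs. Excitatory neurons held 17, 30, 55, 24 and 31 Hspa1a UMIs, or 0.253, 0.445, 0.875, 0.488 and 0.374 CPM, and 9, 25, 20, 15 and 27 Hspa1b UMIs. The copies are nearly identical, so how reads were divided between them is uncertain. Hspa8, the constitutive Hsp70, stood at 53.3 ± 16.3 CPM (SD, n = 5 libraries) in excitatory neurons, 85.4 ± 30.7 in inhibitory neurons, 108 ± 17 in astrocytes, 67.4 ± 28.5 in microglia, 81.7 ± 13.6 in oligodendrocytes and 61.3 ± 34.4 in OPCs. All 5 astrocyte libraries (91.3 to 133 CPM) lay above every excitatory one (38.3 to 78.2 CPM), while most other class ranges overlapped. No class reached the 2-fold limit for Hspa8, whose log2 differences ran from -0.68 ± 0.18 in microglia to 0.55 ± 0.16 in astrocytes. The edgeR fit rescales the class sums and CPM do not, so the 2 scales can order classes differently. Hspa8 was lower in microglia than in excitatory neurons by edgeR (-0.68 and -0.21) but higher by mean CPM. Dnajb1, the main inducible J-domain partner of Hsp70, had 2.44 ± 0.51 CPM in excitatory and 3.76 ± 1.06 in inhibitory neurons.

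The excitatory class divided into 7880 dentate granule-like, 3046 CA1-like and 880 CA3-like nuclei and 5986 others. Granule nuclei were compared with the mean of CA1 and CA3, which tested 59 of the 71 genes among 15278. By edgeR, 1 of the 59 was higher and 2 were lower in granule nuclei, against 8.04% and 8.19% of genes not used for clustering. Dnajc21, which helps ribosome assembly, stood at 20.2, 22.2, 22.1, 22.7 and 20.7 CPM in granule nuclei and at 59.9, 58.4, 55.7, 55.8 and 62.1 CPM in CA1. Its ranges were narrow and apart, and it was -1.36 ± 0.05 lower (edgeR, Benjamini-Hochberg adjusted p = 4.61e-13). Hspa4l stood at 43.1, 58.2, 46.8, 40.8 and 50.1 CPM in granule nuclei and at 84.3, 122, 90.3, 90.8 and 104 CPM in CA3 (-1.02 ± 0.04, adjusted p = 2.3e-13). Hspa2, a testis-rich Hsp70 also found in brain, stood at 2.40, 3.18, 4.56, 2.67 and 1.81 CPM in granule nuclei and at 0.379 to 0.896 CPM in CA3 (1.32 ± 0.16, adjusted p = 2e-06). The CA3 levels of Hspa2 rest on few UMIs. Each difference is from the mean of CA1 and CA3, and only 1 region is printed per gene. It need not hold against the other region alone, which for Hspa2 is CA1. When clusters with many nuclei of both sex-linked kinds were named as well, Hspa2 (0.90) and Hspa4l (-0.998) lost the call, and Hspa4l also lost it without the filter on low counts (-0.98). The medians were -0.06 for the 59 members and 0.03 for the genes not used for clustering.

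The promoters of several ER chaperones carry the element to which ATF6 and NF-Y bind in textbook accounts of the unfolded protein response. RefSeq promoters (GRCm38.p6, 250 bases before to 50 after each start) matched 58 of the 71 symbols, with 75 promoters. The letters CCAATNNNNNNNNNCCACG, read on both strands, were found in 39 of 32851 promoters (0.119%), and 5 of the 58 symbols held them: Hspa5, Hsp90b1, Calr, Canx and Dnajc3. These 5 are shown because they are the members that hold it. They are 5 of the 10 ER chaperones, and the others had no match or no promoter entry. The stretch before each start is printed 5′ to 3′ along the gene, with matches in capitals (CGTGG followed by 9 bases and ATTGG is the same element on the other strand):
Hspa5 (chr2:34771930-34772089, plus strand): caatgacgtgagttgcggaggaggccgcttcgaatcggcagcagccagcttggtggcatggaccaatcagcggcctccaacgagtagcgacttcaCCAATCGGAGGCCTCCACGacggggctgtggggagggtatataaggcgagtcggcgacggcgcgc
Hsp90b1 (chr10:86705445-86705694, minus strand): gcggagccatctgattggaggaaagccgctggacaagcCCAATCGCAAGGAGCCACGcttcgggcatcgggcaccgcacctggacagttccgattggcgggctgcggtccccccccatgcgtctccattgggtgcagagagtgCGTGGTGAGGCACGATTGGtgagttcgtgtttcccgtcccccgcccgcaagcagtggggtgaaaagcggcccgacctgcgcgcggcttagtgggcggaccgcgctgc
Calr (chr8:84846932-84847181, minus strand): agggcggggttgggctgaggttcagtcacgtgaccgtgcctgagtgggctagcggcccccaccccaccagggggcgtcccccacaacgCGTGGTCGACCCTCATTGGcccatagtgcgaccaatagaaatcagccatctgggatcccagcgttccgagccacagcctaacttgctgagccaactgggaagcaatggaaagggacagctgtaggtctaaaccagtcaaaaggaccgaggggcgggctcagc
Canx (chr11:50325674-50325833, minus strand): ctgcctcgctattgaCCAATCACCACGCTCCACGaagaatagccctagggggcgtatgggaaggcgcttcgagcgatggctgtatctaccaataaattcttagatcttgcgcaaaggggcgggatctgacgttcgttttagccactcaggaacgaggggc
Dnajc3 (chr14:118937772-118937931, plus strand): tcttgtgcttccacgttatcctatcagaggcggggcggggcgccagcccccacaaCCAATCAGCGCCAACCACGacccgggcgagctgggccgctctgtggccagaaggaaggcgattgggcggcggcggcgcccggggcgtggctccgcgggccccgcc
Hsp90b1 holds 2 matches and the other 4 genes hold 1 each. A match describes these letters and is neither a shown binding site nor a cause.

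For the cytosolic genes the letters GAANNTTCNNGAA, 3 units of the heat shock element in a row, were read on both strands. They were found in 198 promoters (0.603%) and in 4 of the 58 symbols. The pieces that hold them, with the matched bases in capitals, are short:
Hspe1 (chr1:55088053-55088082, plus strand): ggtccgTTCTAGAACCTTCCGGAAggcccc
Hspd1 (the same bases, minus strand): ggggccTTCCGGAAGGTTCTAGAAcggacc
Hsph1 (chr5:149636280-149636308, minus strand): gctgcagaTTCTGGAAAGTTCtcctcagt
Dnajb6 (chr5:29735844-29735872, plus strand): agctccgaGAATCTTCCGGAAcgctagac
Hspd1 and Hspe1, the mitochondrial chaperonin and its lid, lie head to head, and their 2 overlapping matches are the same bases read from either side. In Hsph1 the match lies after the start. No promoter entry was used for 13 members, among them Hspa8, Hsp90aa1 and Hsp90ab1.

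Chromatin at the members' starts was read as transposase cut sites in the peaks within 500 bases of the gene position, per 1000000 cut sites in peaks. A peak lay there in all 5 libraries for 66 of the 71 genes. Dnajb7 and Dnajb8 had none in any library, Hspa12b had one in 2 libraries and Hspb1 in 1. For Dnajc6 the deposited position is a long interval, and both of its ends were read. At the upper end oligodendrocytes had 41.1 ± 4.0 CPM (SD, n = 5 libraries), excitatory neurons 12.8 ± 3.2 and microglia 0.560 ± 0.784. The lower end had 8.34 ± 0.46 in excitatory neurons, 5.59 ± 1.64 in oligodendrocytes and 0 cut sites in microglia. Oligodendrocytes thus had more cut sites than excitatory neurons at one end and fewer at the other, and these differences were not tested. Dnajb2 had 72.0 ± 12.9 CPM in oligodendrocytes and 23.0 ± 1.6 in excitatory neurons. Hspa12a had 25.5 ± 1.1 in excitatory neurons, 9.13 ± 4.74 in oligodendrocytes and 3.49 ± 0.72 in OPCs. Promoters as a whole took a larger share of cut sites in glia. Per 1000000 cut sites at promoter peaks alone, Dnajb2 had 120 in oligodendrocytes and 64.0 in excitatory neurons, Hspa12a 15.2 and 70.8, and the upper end of Dnajc6 68.7 and 35.5. Canx had 191 in microglia and 159 in excitatory neurons on that scale, a smaller ratio than that of its RNA. For Hspa4l and Dnajb5 the order of excitatory neurons and oligodendrocytes went against that of the RNA on both scales. Hspa4l had 47.7 CPM of cut sites in peaks in excitatory neurons and 90.4 in oligodendrocytes, or 132 and 151 at promoter peaks alone. Microglia had 55.3 for Hspa4l, or 85.3 at promoter peaks alone, where they lay below excitatory neurons as in the RNA. At its lower end Dnajb5 had 50.05 in excitatory neurons and 134 in oligodendrocytes, or 139 and 223 at promoter peaks alone. For Hsp90b1 the order depended on the scale: it had 116 in microglia and 89.8 in excitatory neurons in all peaks, but 179 and 249 at promoter peaks alone. Hsp90aa1 had 119 in oligodendrocytes and 70.5 in excitatory neurons, and the promoter-peak values were 200 and 196. None of these differences was tested.

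The genotype comparisons ask how the 5xFAD transgenes and, within 5xFAD, the labelled loss of MAGL go with chaperone levels. Ratios are log2 ratios of class CPM between 2 libraries, with exact 95% intervals in brackets that cover counting error only. A gene counts as past the limit at 1.5-fold with at least 100 UMIs over both libraries. The 3 MAGL-KO comparisons share the 5xFAD library, so they are not independent of each other or of 5xFAD against WT. In these sums, fewer RNA molecules per nucleus and a different mix of nuclei within a class cannot be told apart.

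Between 5xFAD and WT, Hsph1 was the 1 chaperone past 1.5-fold in excitatory neurons. Of 58 members 1 was higher and 0 lower, against 0.870% and 1.36% of genes. The members' median was 0.04 and that of all genes -0.01. Hsph1, an Hsp110 that works with Hsp70 to pull aggregates apart, stood at 29.7, 46.1, 32.8, 29.8 and 35.0 CPM, so that 5xFAD alone was high. Its ratio to WT was 0.63 [0.55, 0.72], and the other 2 highest were Hspa4l (0.40 [0.35, 0.45]) and Hspe1 (0.31 [0.16, 0.46]). Other genes counted among HSF1 targets lay on the same side: Hsp90aa1 at 0.30, Dnajb1 at 0.28 [-0.04, 0.59], Hspd1 at 0.24, Hspa8 at 0.23 and Hsp90ab1 at 0.21. Of the 13 HSF1-target members 10 could be measured, and 9 of these were above 0, beside 46.1% of all genes, with a median of 0.26. Immediate early genes had a median of -0.22 and the respiratory chain list 0.06, with 0 of 16 and 0 of 23 past the limit. The lowest 3 chaperone ratios were those of Dnajb9 (-0.18), Hspb11 (-0.15) and Dnajc9 (-0.14). Of the ER chaperones, Hspa5 had -0.12 [-0.20, -0.04], Calr -0.02, Hsp90b1 0.14 and Canx 0.22.

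Inhibitory neurons showed the same named genes on the high side. Of 55 members 2 were higher and 0 lower, against 1.53% and 1.23% of genes. Dnajb1 had 34 UMIs in WT and 85 in 5xFAD, a ratio of 0.84 [0.25, 1.46]. Hsph1 stood at 29.7, 49.9, 30.2, 24.8 and 29.4 CPM, with a ratio of 0.75 [0.56, 0.94], and Hspa8 at 0.47 [0.32, 0.61]. The 5xFAD library was again the only one in which Hsph1 was high. The lowest ratios, Dnajc30 (-0.28), Dnajb12 (-0.27) and Dnajc19 (-0.25), were those of mitochondrial and ER-membrane genes. The HSF1-target median was 0.41 over 10 genes, beside 0.02 over all genes, and it was 0.12 in nuclei with Xist and 0.48 in those with Y-linked transcripts. In oligodendrocytes 2 of 25 members were higher and 0 lower, against 2.26% and 2.29%: Hspa4l (0.89 [0.33, 1.48], 39 and 84 UMIs) and Dnaja1, a J-domain partner of Hspa8 (0.78 [0.25, 1.34]). Hsp90ab1 there had 0.44 [0.13, 0.75], and the lowest were Dnajb14 (-0.52), Hspa5 (-0.40) and Dnaja2 (-0.29), whose intervals included 0.

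**Figure D3:**
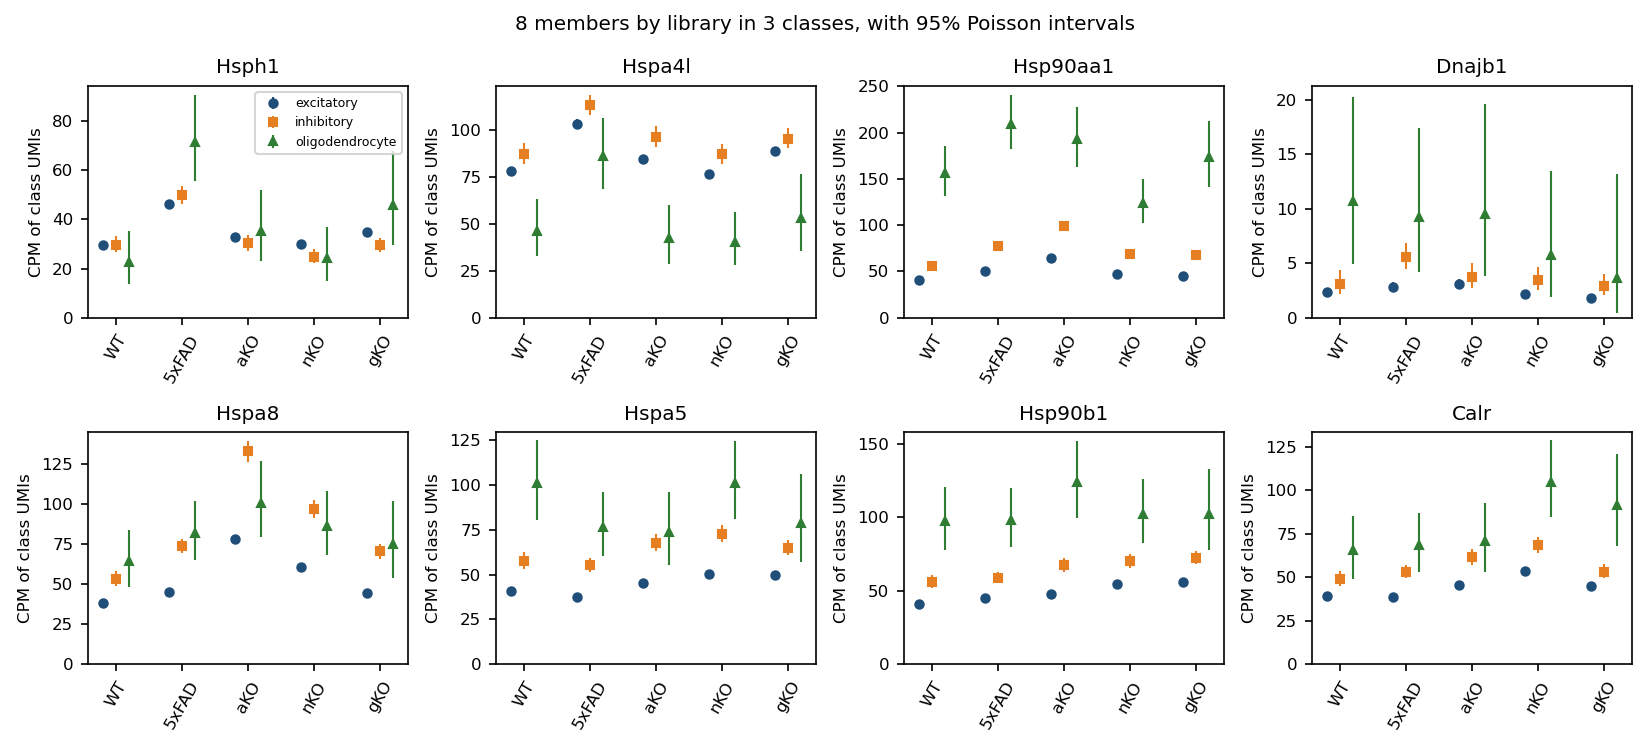
Levels of 8 chaperone genes (CPM of class UMIs, linear axes from 0) in the 5 libraries (aKO, nKO and gKO are the astrocyte, neuron and global MAGL-KO), for 3 cell classes, with 95% Poisson intervals. Hsph1 and Hspa4l peak in the 5xFAD library in neurons, and Hspa8 in the library labelled astrocyte MAGL-KO, at 78.2 CPM in excitatory nuclei.

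The 5xFAD peak of Hsph1 was found in nuclei with Y-linked transcripts and hardly in those with Xist. In excitatory nuclei with Xist, Hsph1 stood at 28.2, 30.8, 33.0, 31.8 and 38.0 CPM. In those with Y-linked transcripts it stood at 31.1, 56.6, 31.8, 21.7 and 31.5 CPM. The 5xFAD value of 56.6 lay above all 9 others. The ratio to WT was 0.13 [-0.02, 0.27] in the former and 0.86 [0.74, 0.99] in the latter. Dnajb1 had 1.82 CPM with Xist and 3.78 CPM with Y-linked transcripts in 5xFAD, beside 2.27 and 2.50 in WT. Hsp90aa1 had 40.9 and 55.6 CPM in 5xFAD, beside 39.1 and 41.0 in WT, and Hspa4l 91.1 and 109 CPM, beside 80.0 and 71.5. Over the HSF1-target members the median ratio was 0.01 with Xist and 0.39 with Y-linked transcripts. The difference between the 2 kinds was not tested, and sex and animal cannot be told apart. By region, Hsph1 stood at 21.4 and 33.4 CPM (WT and 5xFAD) in granule nuclei, 39.9 and 52.2 in CA1 and 32.5 and 64.6 in CA3.

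**Figure D4:**
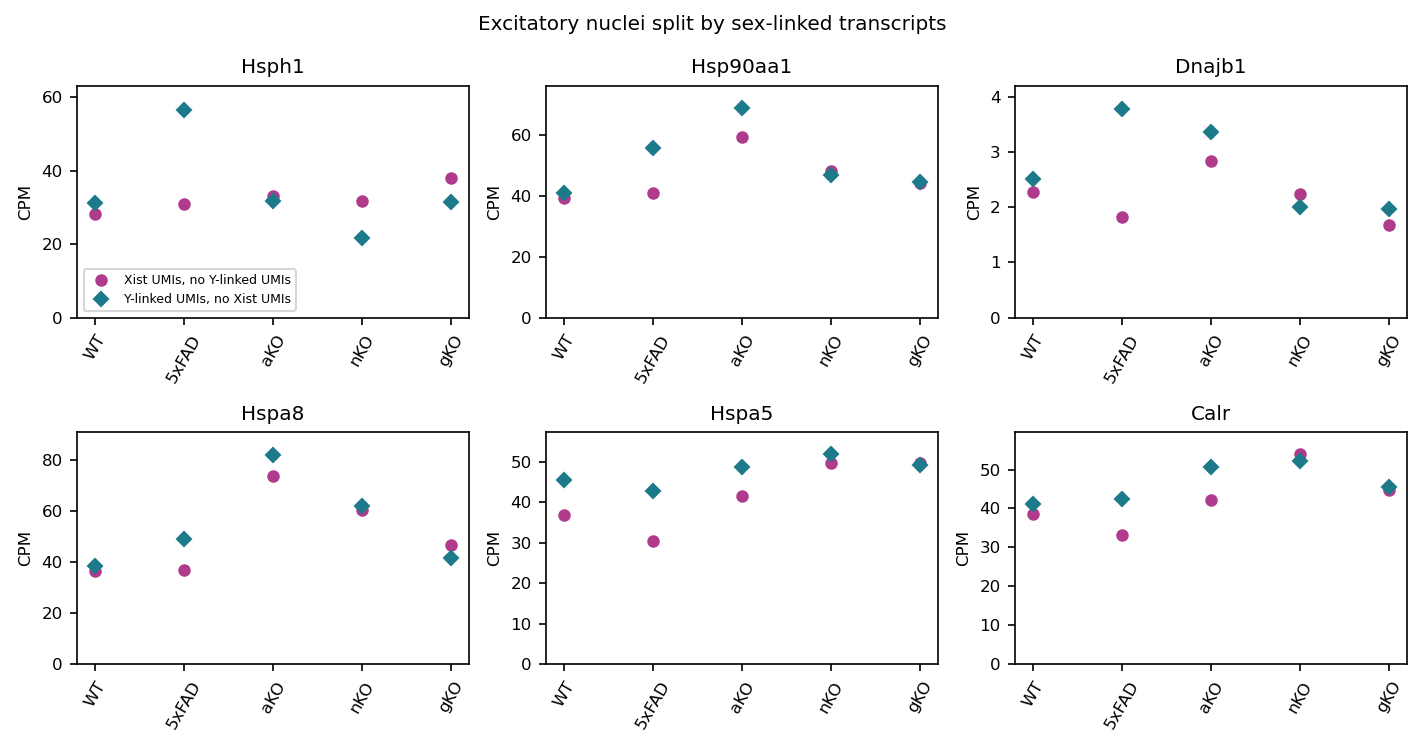
Levels of 6 chaperone genes (CPM, linear axes from 0) in excitatory nuclei with Xist only or with Y-linked transcripts only, with 1 point per library and kind (aKO, nKO and gKO are the astrocyte, neuron and global MAGL-KO). Hsph1, Hsp90aa1 and Dnajb1 are high in 5xFAD nuclei with Y-linked transcripts, where Hsph1 reaches 56.6 CPM.

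Against 5xFAD, excitatory Hsph1 and Hspa4l had ratios below 0 in all 3 libraries labelled MAGL-KO. Excitatory Hsph1 had ratios of -0.49 [-0.57, -0.41], -0.63 [-0.72, -0.54] and -0.40 [-0.47, -0.32] for astrocyte, neuron and global MAGL-KO. Those of Hspa4l were -0.29, -0.43 and -0.22. In inhibitory neurons Hsph1 had -0.72, -1.005 and -0.76, and Dnajb1 -0.57, -0.68 and -0.94. The excitatory Hsph1 difference again lay in nuclei with Y-linked transcripts, at -0.83, -1.38 and -0.84, where excitatory nuclei with Xist had 0.10, 0.04 and 0.30. All of these ratios use the same 5xFAD value, which is the high one. In granule nuclei, where the 5 levels were 21.4, 33.4, 32.3, 29.3 and 35.2 CPM, the 3 libraries lay close to 5xFAD, while CA3 went from 64.6 CPM to 30.9, 29.0 and 33.6. The cluster led by Plpp4, Pappa and Penk made up 21 of 1360 granule nuclei in 5xFAD. In the 3 others it made up 296 of 1702, 282 of 1147 and 571 of 2044, and its part was not tested.

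In the library labelled astrocyte MAGL-KO, 5 of 58 members were past the limit on the high side in excitatory neurons and 0 on the low side, against 16.6% and 0.950% of genes. Many genes of this class were higher there: the median gene had a ratio of 0.22, or 0.18 where the neuron-specific loss is labelled, so values relative to the median gene are added. The members' median was 0.16, or -0.06 with size factors set by the median ratio over genes. Hspa8 stood at 38.3, 44.8, 78.2, 60.9 and 44.5 CPM, highest in that library, with a ratio of 0.81 [0.74, 0.87], or 0.59 relative. In inhibitory neurons it stood at 53.3, 73.7, 133, 96.7 and 70.3 CPM, with a ratio of 0.85 [0.74, 0.96]. Nuclei with Xist had 0.99 and those with Y-linked transcripts 0.73 for excitatory Hspa8, and granule, CA1 and CA3 nuclei had 0.69, 0.68 and 0.65. Hspa8 was thus higher in both kinds of nuclei and in each region. Hsp90ab1 had 0.53 [0.48, 0.59] in excitatory (0.32 relative) and 0.64 in inhibitory neurons, and Hsp90aa1 0.36 in both. The other 4 past the limit in excitatory neurons were Dnajc30 (0.83 [0.61, 1.05]), Dnajc9, a histone chaperone (0.71), Hspa2 (0.64, but -0.08 in nuclei with Y-linked transcripts) and Dnajb9, an ER partner of Hspa5 (0.63). Beside Hsph1 and Hspa4l, the lowest was Dnajc1 of the ER membrane (-0.28 [-0.30, -0.25]). Nuclear genes of the respiratory chain moved with Hspa8: their median was 0.62, with 15 of 23 past the limit, and immediate early genes had a median of -0.78, with 10 of 16 past the limit on the low side and 1, Jun (0.66), on the high side. Their part in the chaperone values was not tested.

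Inhibitory neurons of the same library had 6 of 55 members higher and 1 lower, against 12.3% and 1.44% of genes, with a median of 0.20 against 0.15. Beside Hspa8 and Hsp90ab1 these were Dnajc4 (0.82 [0.33, 1.31]), Dnajc30 (0.68), Dnaja4 (0.67 [0.28, 1.06]) and Dnajc19 (0.63), and the lower gene was Hsph1. Dnajc1 had -0.49 [-0.56, -0.42]. In neither neuronal class was the members' share on the high side above that of all genes. Oligodendrocytes had 0 of 22 higher and 2 lower, against 3.74% and 3.77%: Hspa4l (-1.02 [-1.67, -0.41]) and Dnaja1 (-0.72 [-1.30, -0.17]). Dnajc1 had -0.44 there, and the highest were Hspa4 (0.58), Dnajc19 (0.37) and Hsp90b1 (0.34).

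For the library labelled neuron MAGL-KO, Hsph1 was the 1 member past the limit in excitatory neurons, on the low side. Of 58 members 0 were higher and 1 lower, against 15.3% and 1.29% of genes. The members' median was 0.11, or -0.07 with size factors set by the median ratio over genes. Calr stood at 39.3, 38.7, 45.5, 53.4 and 45.0 CPM, with a ratio of 0.46 [0.39, 0.54] (0.29 relative), and Hspa5 at 40.6, 37.3, 45.2, 50.4 and 49.8 CPM, with 0.43 [0.35, 0.51] (0.25 relative). Hsp90b1 had 0.27 and Canx 0.04, or 0.09 and -0.14 relative. All 9 members that the unfolded protein response is known to raise (UPR-target members) were above 0, as were 74.6% of all genes, with a median of 0.27 against 0.18 for all genes. The highest members were Dnajc30 (0.53), Dnajb9 (0.50 [0.31, 0.68]) and Dnajc9 (0.47), and Dnajb1 was low (-0.41 [-0.77, -0.06]). Hspa8 had 0.44, Hsp90aa1 -0.07 and Hsp90ab1 0.08. The respiratory chain list had a median of 0.48, with 9 of 23 past the limit on the high side, and immediate early genes -0.58, with 8 of 16 on the low side. Their part in the chaperone values was not tested. In inhibitory neurons 2 of 55 were higher and 2 lower, against 10.2% and 1.17%. These were Dnajc4 (0.63) and Dnaja4 (0.59), and Hsph1 and Dnajb1. Dnajb9 had 0.57 and Dnajb2 -0.54. In oligodendrocytes 1 of 25 was higher and 4 lower, against 4.38% and 3.74%. The higher gene was Calr (0.61 [0.14, 1.09]), and the lower were Hspa4l (-1.09), Dnaja1 (-0.76), Hsp90aa1 (-0.75 [-1.10, -0.41]) and Hsp90ab1 (-0.66 [-0.99, -0.34]), all HSF1-target members. Those 4 are of 5 such genes measured there, and their share lies above that of all genes. Dnajc19 (0.39) and Hspa5 (0.40) followed on the high side. The median of all members measured in oligodendrocytes was 0.01, or -0.02 with Xist and -0.47 with Y-linked transcripts. The medians by kind cover only members with at least 100 UMIs over both libraries in nuclei of that kind. They are fewer than the 25, so the medians are not of the same genes. Nuclei with Xist made up 85.59% of the oligodendrocytes with only 1 of the 2 kinds, beside 47.18% in 5xFAD. The part of this mix in the lower genes was not tested.

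In the library labelled global MAGL-KO few chaperones were past the limit against 5xFAD. The members' excitatory median was 0.08 in nuclei with Xist and -0.03 in those with Y-linked transcripts. Excitatory neurons had 0 of 58 higher and 2 lower, against 3.03% and 1.13% of genes. The lower ones were Dnajb1, at 2.34, 2.83, 3.07, 2.13 and 1.83 CPM (-0.63 [-0.94, -0.31]), and Hspa2 (-0.62 [-1.03, -0.21]). The members' median was 0.01, or -0.03 with size factors set by the median ratio over genes, and that of the HSF1-target members was -0.19, with 0 of 10 above 0, beside 61.1% of all genes. That median was 0.09 in nuclei with Xist and -0.33 in those with Y-linked transcripts, so its direction turned with the kind of nucleus. The highest members were Hspa5 (0.42 [0.35, 0.49]), Hsp90b1 (0.30 [0.23, 0.36]) and Calr (0.22 [0.15, 0.29]), none of them past the limit. The 10 ER chaperones had a median of 0.11, against 0.04 for all genes, with Canx at 0.001 and Hspa13 at -0.30 [-0.45, -0.15]. Nuclei with Xist had 0.70 for Hspa5 and those with Y-linked transcripts 0.20. The respiratory chain list had a median of -0.01, with 0 of 23 past the limit, and immediate early genes -0.45, with 5 of 16 on the low side, and their part was not tested. In inhibitory neurons 0 of 55 were higher and 2 lower, against 2.15% and 2.10%: Dnajb1 and Hsph1. Dnaja1 had -0.55 [-0.70, -0.40], and the highest were Dnajc4 (0.47), Hsp90b1 (0.30) and Dnajc19 (0.29). Oligodendrocytes had 1 of 20 higher and 2 lower, against 1.85% and 2.95%: Dnajc7, an Hsp70 and Hsp90 partner (0.59 [0.18, 1.00]), and Dnaja1 (-1.23 [-1.99, -0.53]) and Hspa4l (-0.69). Dnajc7 had -0.01 when nuclei were assigned by marker score. Dnajc6 had -0.46 [-0.78, -0.15], Calr 0.42 and Dnajc24 0.17.

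**Figure D5:**
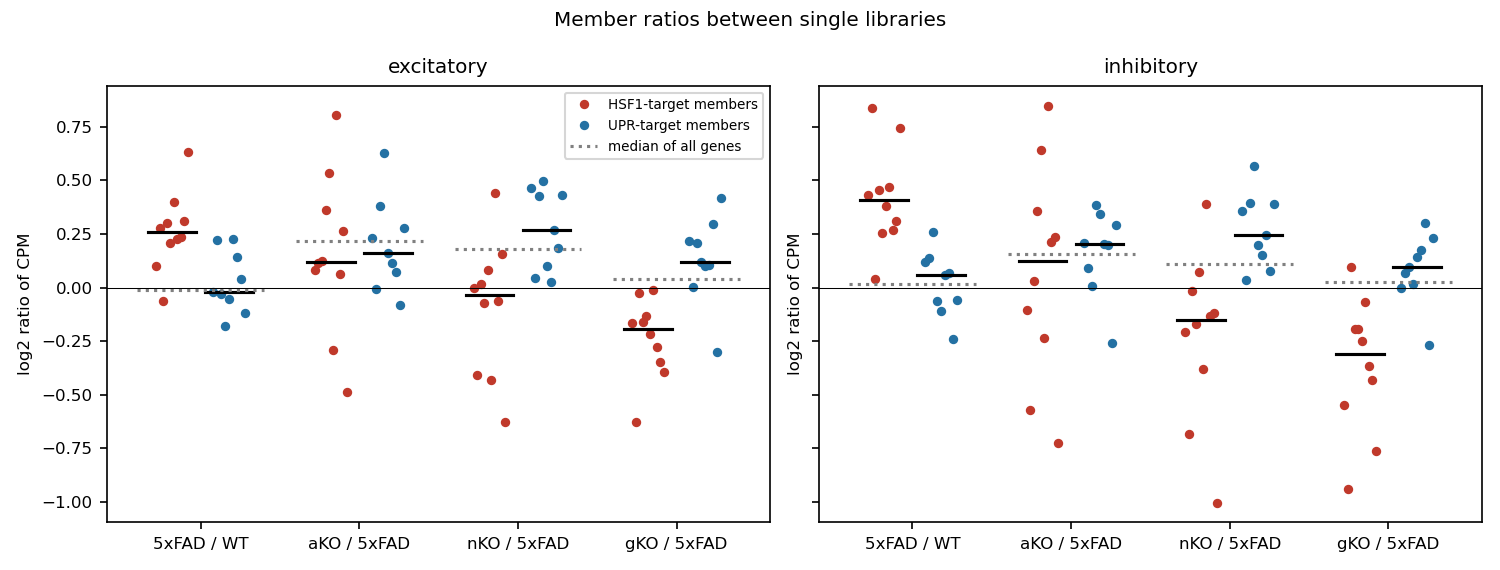
Log2 ratios of CPM of the HSF1-target and UPR-target members with at least 100 UMIs over both libraries, in excitatory and inhibitory nuclei, for the 4 comparisons (aKO, nKO and gKO are the astrocyte, neuron and global MAGL-KO). Bars are list medians and dotted lines the median of all genes, and HSF1-target members lie mostly above 0 in 5xFAD against WT (median 0.26 in excitatory neurons, or 0.01 in nuclei with Xist and 0.39 in those with Y-linked transcripts) and mostly under 0 in the global MAGL-KO comparison (median -0.19, but 0.09 in nuclei with Xist and -0.33 in those with Y-linked transcripts).

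Hspa5 and Calr in 5xFAD excitatory nuclei also differed by sex-linked kind. Hspa5 stood at 36.8, 30.5, 41.6, 49.8 and 49.7 CPM with Xist and at 45.6, 42.8, 48.8, 52.0 and 49.2 CPM with Y-linked transcripts. Calr stood at 38.7, 33.1, 42.1, 54.1 and 44.9 CPM with Xist and at 41.1, 42.4, 50.6, 52.2 and 45.5 CPM with Y-linked transcripts. In 5xFAD the nuclei with Xist had the lowest of the 10 values for both genes. The UPR-target medians against 5xFAD were 0.28, 0.45 and 0.28 with Xist and 0.17, 0.19 and 0.06 with Y-linked transcripts for astrocyte, neuron and global MAGL-KO. The excitatory HSF1-target medians, in the same order, were 0.46, 0.27 and 0.09 with Xist and -0.04, -0.25 and -0.33 with Y-linked transcripts. In inhibitory neurons they were 0.37, 0.24 and -0.01 with Xist and 0.08, -0.14 and -0.47 with Y-linked transcripts.

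For the 27 Hsp70 and Hsp90 partners and heat shock factors, the excitatory medians were 0.04 for 5xFAD against WT and 0.17, 0.12 and -0.01 for the 3 MAGL-KO comparisons. In the same order 1, 3, 2 and 0 of them were past the limit on the high side, against 0.870%, 16.6%, 15.3% and 3.03% of genes, and 0 on the low side. The 1 in 5xFAD was Bag3, at 0.745, 1.25, 1.10, 1.52 and 1.07 CPM, with ratios of 0.74, -0.18, 0.29 and -0.21. Bag5 (0.86 and 0.67) and Hsbp1 (0.72 and 0.72) were past it for astrocyte and for neuron MAGL-KO, and Cryab (0.74) for the former. Excitatory Cryab was low, at 0.994 CPM in 5xFAD and 1.65 CPM in astrocyte MAGL-KO, beside 99.8 to 174 CPM in oligodendrocytes. Stip1, which links Hsp70 to Hsp90, had 0.34, -0.22, -0.44 and -0.25, and Chordc1, an Hsp90 partner, had 0.21, -0.19, -0.25 and -0.23. Hsf1 itself stood at 18.8, 20.2, 22.9, 23.5 and 21.3 CPM. The TRiC list had 0 of 8 past the limit in each of these comparisons. Of 21 measured UPR genes outside the members, 0, 2, 2 and 0 were past the limit on the high side, against 0.870%, 16.6%, 15.3% and 3.03% of genes, and 0 on the low side. Manf, a secreted ER stress factor, stood at 30.8, 28.9, 45.8, 48.4 and 30.7 CPM. It was past the limit for astrocyte (0.66) and neuron MAGL-KO (0.74), and Creld2 for neuron MAGL-KO (0.76). Xbp1, a transcription factor of the response, stood at 13.0, 13.2, 17.6, 19.8 and 16.9 CPM and was past the limit in no comparison.

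Accessibility of these promoters varied little between genotypes. In excitatory nuclei the Hsph1 peak held 74.1, 73.2, 73.8, 69.9 and 71.4 CPM of cut sites, and that of Hspa8 109, 117, 114, 114 and 109 CPM. For Hspa5 the values were 62.6, 67.8, 62.6, 61.7 and 61.3 CPM, and for Dnajb1 65.9, 70.6, 67.1, 64.5 and 65.2 CPM. The 5xFAD library was the highest for Hspa8, Hspa5 and Dnajb1. None of these 4 promoters had its highest value in the library where its excitatory RNA level was highest.

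In microglia and astrocytes few members reached 100 UMIs over 2 libraries. Canx was the 1 microglial member past the limit, with 56 UMIs in 5xFAD and 86 where the neuron-specific loss is labelled (1.09 [0.59, 1.61]). Its ratios were 0.15 and 0.12 in those labelled astrocyte and global MAGL-KO. The share of all microglial genes past the limit was not computed, so it is not known whether this count is above it. Hsp90b1 had -0.03 and 0.26 for astrocyte and global MAGL-KO, and Dnajc13, which acts on endosomes, 0.01, 0.16 and 0.10 in the 3. Dnajc1 had -0.21 for 5xFAD against WT and 0.04, -0.07 and -0.00 after that. In astrocytes Dnajc1 alone could be measured, at -0.09 for 5xFAD against WT and 0.14, 0.08 and 0.28 for the 3 MAGL-KO comparisons, each interval including 0.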

How the data were processed

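Nuclei of 5 hippocampal libraries, 1 per genotype, were analysed. The deposited matrices hold raw counts: UMIs per gene and transposase cut sites per peak, in nuclei called by Cell Ranger ARC 2.0.0 against mm10, per the submitters' processing notes, which also list Seurat. Peaks were called in each library separately, and the other steps are not given in the sources used here. Depth per library was 101931020 to 159532813 UMIs, and 95% intervals cover counting error only.

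Nuclei under 500 genes or over 5% mitochondrial UMIs were dropped, as were likely doublets (131 to 449 per library). Clusters were made with scanpy 1.11.5 (2000 variable genes, 40 components, 15 neighbours, Leiden resolution 1) without the 71 members and named from marker lists. The limits on a second class (0.7), on sub-class scores (0.8) and on clusters with over 30% of nuclei holding both Xist and Y-linked UMIs were set after seeing the data. The last left 12.94%, 9.45%, 12.96%, 15.16% and 15.59% of nuclei of the WT, 5xFAD, astrocyte, neuron and global MAGL-KO libraries unnamed. The members and all gene lists were chosen with earlier results of these data known.

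UMIs were summed per class and library. Class contrasts used edgeR 4.0.16 (quasi-likelihood, TMM, library as a term) in R 4.3.3, and background shares are over the genes not used for clustering. Genotypes were compared as ratios of CPM with exact Poisson and conditional binomial intervals (Clopper-Pearson, scipy 1.17.1). The script was tested on simulated data. The genes named were the 4 largest calls per direction in each class, the 3 highest and 3 lowest ratios in each genotype comparison, and a fixed set of 11 well-known chaperones. Some items are not reported here. Calls named beyond these were chosen after their values were seen. Alternatives were other size factors, DESeq2 1.42.0, other filters, a pseudocount of 5 CPM, kept doublets, marker-score classes, single sexes, 1 excitatory cluster left out (added after seeing the data) and each library left out.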

Additional observations from a re-analysis of the deposited data

Results flagged for a closer look

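For 6 excitatory ratios to 5xFAD, the value in nuclei with Xist lay above 0 and that in nuclei with Y-linked transcripts lay under 0, each with a counting interval clear of 0. The share of all genes that split in this way was not computed, so it is not known whether this count is above it. The difference between the 2 kinds was not tested, and sex and animal cannot be told apart.

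In the library labelled global MAGL-KO, Hsph1 had a log2 ratio to 5xFAD of 0.30 with Xist and -0.84 with Y-linked transcripts. Hspa8 had 0.33 and -0.24 in the same comparison, and Canx 0.16 and -0.14. In the library labelled astrocyte MAGL-KO, Canx had 0.16 with Xist and -0.15 with Y-linked transcripts. For the library labelled neuron MAGL-KO the values were 0.23 and -0.25 for Hsp90aa1, and 0.33 and -0.18 for Hsp90ab1. All of these ratios share the 5xFAD library, in which nuclei with Y-linked transcripts had the higher level of each of these genes.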

How the results depend on the processing

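The number of members called stayed within 1.5 times the reported count under the other settings tried, with these exceptions, for which the cause was not tested. Without the filter on low counts the calls numbered 8 in excitatory (5 reported), 7 in inhibitory (4) and 8 in astrocyte nuclei (4). With marker-score classes they numbered 1 in excitatory, 0 in inhibitory, 0 in astrocyte, 0 in microglial (14), 1 in oligodendrocyte (6) and 0 in OPC nuclei (3). Keeping likely doublets gave 7 in microglia. Naming the mixed clusters, chosen after seeing the data, gave 1 in granule nuclei (3). Leaving out the excitatory cluster led by Nxph1, also chosen after seeing the data, kept each count of calls. Leaving out 1 library gave 4 to 5 excitatory, 4 to 5 inhibitory, 3 to 5 astrocyte, 10 to 13 microglial, 6 to 8 oligodendrocyte, 2 to 3 OPC and 3 to 4 granule calls.

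Marker-score classes reversed Dnajc6 (0.34), Hsph1 (0.11), Dnajc3 (-0.0227) and Hspa12a (0.45) in astrocytes, Dnajb4 (0.0540), Dnajb5 (0.0993) and Hspb11 (0.0499) in microglia, Dnajc30 (0.0743) in OPCs and the ratio of Dnajc7 (-0.0127) in oligodendrocytes labelled global MAGL-KO. Single sexes reversed Hspa2 in excitatory nuclei labelled astrocyte MAGL-KO (-0.0805 with Y-linked transcripts), and Hsph1 with Xist in excitatory nuclei labelled neuron MAGL-KO (0.0447) and inhibitory nuclei labelled global MAGL-KO (0.00356).

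The members' median ratio moved with size factors to -0.0592, -0.0651 and -0.0334 in excitatory nuclei labelled astrocyte, neuron and global MAGL-KO, and to 0.0423 in inhibitory nuclei labelled astrocyte MAGL-KO. In nuclei with Xist it moved to -0.00266 for excitatory 5xFAD against WT, 0.179 and 0.0799 for excitatory neuron and global MAGL-KO, 0.25 for inhibitory astrocyte MAGL-KO and 0.22 for oligodendrocyte global MAGL-KO. In nuclei with Y-linked transcripts it moved to -0.0333 for excitatory global MAGL-KO, 0.105 and -0.0767 for inhibitory astrocyte and global MAGL-KO, and 0.34, -0.47 and -0.75 for oligodendrocyte 5xFAD against WT, neuron and global MAGL-KO. Each median by kind covers only members with at least 100 UMIs over both libraries in those nuclei, which can be fewer genes. Marker-score classes gave 0.0592 for oligodendrocyte astrocyte MAGL-KO. The other values under an alternative were those of single genes, HSF1-target and UPR-target medians and promoter accessibility. Of these, 1570 kept their call or moved within their interval, or within the SD over libraries for promoters. A further 142 moved more, 64 lost a call and 12 reversed. The 142 include promoter values per cut sites at promoter peaks alone, where the denominator differs.

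No paired analysis was possible because each genotype is 1 library, so the groups share fewer than 2 replicate numbers. The class contrasts compare classes within libraries through the library term, and dropping that term left 3 astrocyte and 13 microglial calls and changed no other count. Depth limits microglia and astrocytes, where at most 4 members reached 100 UMIs over 2 libraries.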
